A study of Danio rerio with 17 samples.

Results

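The midbrains of 3 Transgenic Mosaic 1 zebrafish fed a selenium-deficient diet were compared with those of 3 fish of the same population fed the control diet. These 6 fish are 6 of the 17 in the series and were taken by their population and diet labels alone. All were males, 1 year old and sexually mature. They had eaten their diet, with selenium as selenomethionine, for 10 weeks, at 0.46 ppm (deficient) or 1.7 ppm (control). A further 3 Transgenic Mosaic 1 fish had 3.1 ppm (supplemented). The second population, Pargana, had 2 control, 3 deficient and 3 supplemented fish. Its deficient fish 3 has a sample code with another letter than the other Pargana codes, and its stated population was kept. The labels give the name Transgenic Mosaic 1 with no construct or allele, and no treatment other than the diet. Each array held RNA from 1 midbrain, labelled with Cy3, so the spread within a group covers differences between fish together with dissection and hybridisation. Fish are numbered here within their group in the order of their records, and the numbers pair no fish across groups.

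Selenium acts in cells mainly as selenocysteine, which is built into selenoproteins at a recoded stop codon. A stem-loop in the 3′ untranslated region of each selenoprotein mRNA and a protein that binds it, SECISBP2, direct this step. In mammals the brain holds its selenium well when the diet is poor, through delivery by selenoprotein P and its receptor LRP8. When selenium is short, selenoprotein mRNAs in mammals differ in how far they fall, and those for glutathione peroxidase 1 and selenoprotein W are among the most sensitive. Selenomethionine can also enter proteins in place of methionine, which ties this form of dietary selenium to the methionine cycle.

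Expression was measured for 15648 genes as log2 values, on which 1 unit is a doubling of signal. Array medians lay between 9.62 and 9.73, and the lowest values on the arrays lay between 3.48 and 3.77. Midbrain markers were present in all 6 fish. The transcription factor PAX7 of the dorsal midbrain had values from 13.12 to 13.35, and EN2, of the midbrain and hindbrain border, from 11.87 to 12.29. Deficient fish 2 stood apart from its group. Its correlation across genes with deficient fish 1 and 3 was 0.9803 and 0.9811, whereas those 2 fish correlated at 0.9890 and the control fish at 0.9829 to 0.9865. With the control fish, deficient fish 2 correlated at 0.9816 to 0.9854, above its values with its group mates. Deficient fish 1 and 3 correlated with the control fish at 0.9820 to 0.9865. On the first principal component of the Transgenic Mosaic 1 arrays (22.2% of variance) deficient fish 2 was at 31.5. The control fish were at 8.0 to 22.8, and deficient fish 1 and 3 at -22.6 and -16.7. Differences said below to rest on deficient fish 2 are given with and without it. The median standard error of a change was 0.18 log2 units, and the median half-width of its 95% interval was 0.396.

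A few genes were far lower in the deficient fish than in the control fish. In limma, with all 17 arrays in the fit and Benjamini-Hochberg adjustment over all genes, 4 of 15648 genes passed an adjusted p of 0.05, which is 0.0256% of genes. All 4 were lower in the deficient fish. No gene rose past the threshold, while 280 genes (1.79%) were higher at an unadjusted p under 0.05, and the smallest adjusted p of a higher gene was 0.142. At an unadjusted p under 0.05 there were 730 genes in all (4.67%), 450 of them lower (2.88%), where 782.4 would be expected if no gene differed.

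The gene ENSDARG00000095735, which has only a clone name, was at 13.56, 13.71 and 13.50 in the control fish and at 9.36, 9.45 and 9.15 in the deficient fish. The groups lay far apart, and no fish of either group came near the other. The means were 13.59 ± 0.11 (SD, n = 3) and 9.32 ± 0.16 (SD, n = 3). The gene was 4.27 log2 units lower in the deficient fish (SE 0.15, adjusted p = 2.42e-09 in limma). The signal of the control fish was thus 19.3 times that of the deficient fish, with a 95% interval from 15.3 to 24.3.

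ENSDARG00000078938, which has no symbol in the tables used here, was at 11.35, 10.92 and 11.0 in the control fish and at 7.0, 7.20 and 6.92 in the deficient fish. The change was -4.05 (SE 0.23, limma adjusted p = 4.49e-07), or 16.6 times more signal in the control fish with a 95% interval from 11.9 to 23.3. The gene si:dkey-58f10.8 (ENSDARG00000093350) was at 7.24, 7.78 and 7.34 on the control diet and at 5.51, 5.56 and 5.27 on the deficient diet. It was 2.01 log2 units lower on the deficient diet (SE 0.19, limma adjusted p = 1.6e-04), a ratio of 4.03 with a 95% interval from 3.05 to 5.31. The function of these 3 genes is not given by the files, so no role is stated for them.

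These 3 genes were not simply low in the deficient fish. In each of them the 3 control fish lay above all 14 other fish of the series, and the deficient fish lay among or near the rest. For ENSDARG00000095735 the lowest control fish was 3.87 log2 units above the highest of the other 14. The gap was 2.72 for ENSDARG00000078938 and 1.19 for si:dkey-58f10.8. The 8 Pargana fish had 9.16 to 9.63 for ENSDARG00000095735, next to 9.15 to 9.45 in the deficient Transgenic Mosaic 1 fish. For ENSDARG00000078938 the Pargana range was 6.82 to 8.20 and for si:dkey-58f10.8 it was 5.16 to 6.04.

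The supplemented Transgenic Mosaic 1 fish, which are set against the same 3 control fish, had 9.03, 8.53 and 8.67 for ENSDARG00000095735. They had 7.04, 7.12 and 7.13 for ENSDARG00000078938, and 5.01, 5.28 and 5.44 for si:dkey-58f10.8. Their changes from control were -4.85, -4.0 and -2.21 log2 units in the same order. Because both comparisons use the same control fish, the values are given side by side only. Supplemented minus deficient was -0.58 (SE 0.15) for ENSDARG00000095735, 0.06 (SE 0.23) for ENSDARG00000078938 and -0.20 (SE 0.19) for si:dkey-58f10.8, each with a limma adjusted p of 1.

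**Figure D1:**
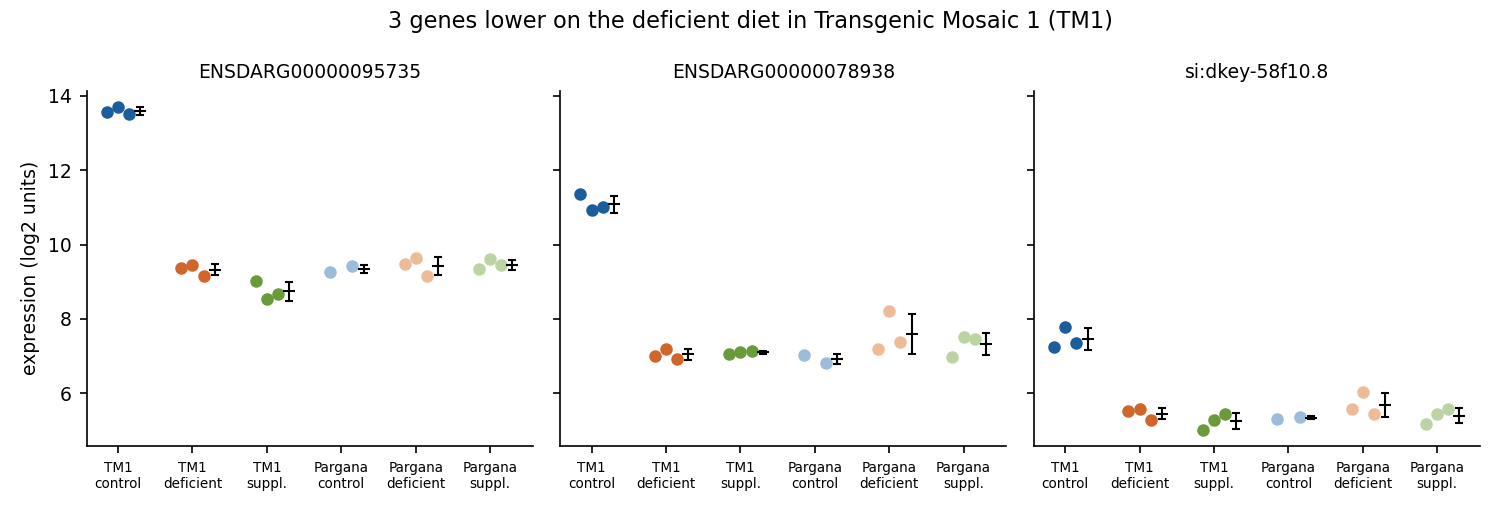
Expression of 3 genes lower on the deficient than on the control diet in Transgenic Mosaic 1, in log2 units, 1 point per fish in each of the 6 groups. The mean and 1 SD of each group stand beside its points (n = 3, Pargana control n = 2). The 3 Transgenic Mosaic 1 (TM1) control fish sit above all 14 other fish in each panel, by 3.87, 2.72 and 1.19 log2 units from left to right.

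The 3 Transgenic Mosaic 1 control fish lay above all 14 other fish in 59 genes (0.377%) and below them in 30 (0.192%), and by a gap of more than 0.5 log2 units in 7 and 0 genes. The 3 deficient fish lay above all others in 20 genes (0.128%) and below in 39 (0.249%), and by more than 0.5 in none. Such an order, at any gap, was not particular to the control fish. The supplemented Transgenic Mosaic 1 fish lay above all others in 48 genes (0.307%) and below in 82 (0.524%), and the supplemented Pargana fish above in 87 (0.556%) and below in 46 (0.294%). By more than 0.5 log2 units the counts above and below were 3 and 0 for the supplemented Transgenic Mosaic 1 fish. They were 3 and 2 for the supplemented and 0 and 1 for the deficient Pargana fish, so the control fish had the most wide gaps. The 7 genes of the control fish with a wide gap included ANKRD2, an ankyrin repeat protein known from striated muscle, with a gap of 0.64, and GGACT, with a gap of 0.56.

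Genes whose pattern was most like that of the 3 genes described above were sought over the 9 Transgenic Mosaic 1 arrays. The 3 genes correlated with each other at Pearson's r of 0.974 to 0.988. CIAO2B, which helps deliver iron-sulfur clusters to cytosolic and nuclear proteins, followed at 0.971 with ENSDARG00000095735. The calpain capn1a followed at 0.973 with si:dkey-58f10.8, although its own change was only -0.18. KANK1 (0.957) and tnfsf10l (0.950) came after it for the same gene. These are descriptions over 9 points that share arrays and diets. The 3 genes were chosen for their step between control and deficient fish, which by itself raises their correlation with each other.

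Across all genes the changes were small. The median change was -0.03 log2 units, the median size of a change was 0.130 and the 95th percentile of its size was 0.5375. For 13580 genes (86.78%) the 95% interval of the change lay within 1 log2 unit of no change. A change above 1 log2 unit was seen in 149 genes (0.952%), of which 74 were higher and 75 lower, and in 45 of them (0.288%) the fish of the groups did not overlap. The 3 deficient and 3 control fish did not overlap in 1298 genes (8.29%), with the deficient fish higher in 459 (2.93%) and lower in 839 (5.36%).

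**Figure D2:**
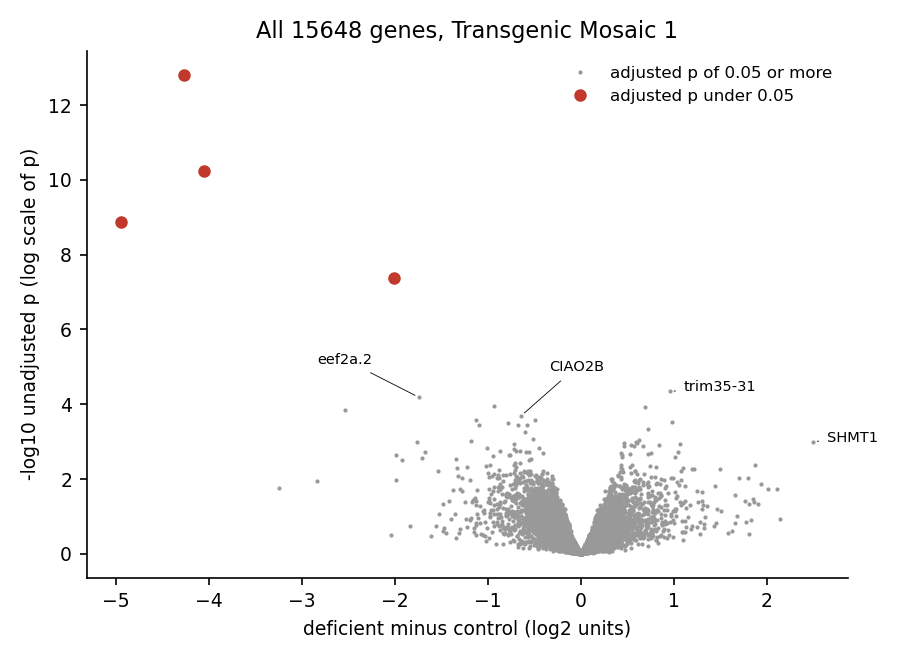
Change on the deficient diet (horizontal, log2 units) against the negative log10 of the unadjusted limma p (vertical) for all 15648 genes. The 4 genes past an adjusted p of 0.05 (red) all lie on the left, and SHMT1, at 2.50, is the named gene with the largest positive difference.

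The 20 named genes next in order of p did not pass, with limma adjusted p from 0.142 to 0.606. Among them 9 were higher and 11 lower in the deficient fish, and in 19 of them the fish of the groups did not overlap. That is a property of small p values and not a separate finding. In Pargana, which shares no fish with this comparison, 10 of the 20 had a difference of the same sign. Supplemented minus control, which uses the same control fish, is given side by side only. It was 0.74 for trim35-31, -1.55 for eef2a.2, -0.71 for CIAO2B, -1.58 for tbx16l, 1.1 for kdm2aa and 0.94 for cox16. The genes were ranked by a difference from these same control fish, which by itself favours the same sign here. No conclusion about either diet is drawn from these values. For cgna (-0.12), ptger4c (-0.45) and inppl1b (-0.47) supplemented minus control was smaller in size than deficient minus control.

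The gene trim35-31, of the TRIM family of ubiquitin ligases, was at 9.05, 8.49 and 8.93 in the control fish and at 9.83, 9.51 and 10.02 in the deficient fish. The difference was 0.96 (SE 0.16, limma adjusted p = 0.142). The elongation factor gene eef2a.2, whose family moves the ribosome along the mRNA, was at 11.80, 10.92 and 11.39 on the control diet and at 9.59, 10.18 and 9.10 on the deficient diet. All deficient fish lay below all control fish, at a difference of -1.74 (SE 0.31, limma adjusted p = 0.169). The gene lcmt2, whose human counterpart modifies a base of phenylalanine tRNA, differed by 0.60 (SE 0.15).

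CIAO2B was at 10.33, 10.21 and 10.29 in the control fish and at 9.78, 9.61 and 9.51 in the deficient fish. This is a tight separation for a modest difference of -0.64 (SE 0.13, limma adjusted p = 0.319). The gene cox16, whose product helps assemble cytochrome c oxidase, differed by 0.63 (SE 0.15). GGACT, an enzyme that breaks down gamma-glutamyl amines, was at 7.82, 7.10 and 7.05 on the control diet and at 4.55, 6.5 and 5.63 on the deficient diet. Its difference was -1.76 (SE 0.43, limma adjusted p = 0.606), and the 5 Pargana fish on the same diets had only 3.94 to 4.36. Those 5 fish and deficient fish 1 lay below the 5th percentile of their arrays (4.55 to 4.65), so the size of the difference is uncertain.

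SHMT1, the cytosolic serine hydroxymethyltransferase that feeds one-carbon units into the folate cycle, had the widest positive difference of the named genes. It was at 5.92, 5.81 and 8.95 in the control fish and at 9.69, 8.70 and 9.79 in the deficient fish. Control fish 3 had a level inside the range of the deficient fish, so the groups overlapped. The difference was 2.50 (SE 0.60, limma adjusted p = 0.606). Without control fish 3 it was 3.53 and passed, with a limma adjusted p of 6.91e-05, but that fish was singled out because it disagreed with its group, so this p is no separate evidence. The supplemented fish were at 8.69, 8.56 and 8.74, and the 5 Pargana fish on the control and deficient diets at 5.74 to 6.90.

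The histone demethylase kdm2aa was at 10.94, 10.75 and 11.02 in the control fish and at 12.30, 11.23 and 12.11 in the deficient fish, a difference of 0.98 (SE 0.20, limma adjusted p = 0.337). The receptor tyrosine kinase kitb differed by 0.73 (SE 0.16) and the actin-binding AIF1L by 0.69 (SE 0.13). The T-box factor tbx16l was at 8.14, 7.54 and 8.01 against 6.69, 6.56 and 7.05, a difference of -1.13 (SE 0.23). The prostaglandin E2 receptor ptger4c was at 7.38, 7.69 and 7.26 against 6.30, 6.34 and 6.44, a difference of -1.09 (SE 0.23). In both of these the control fish were the higher group with no overlap. The phosphoinositide phosphatase inppl1b differed by -0.78 (SE 0.16), badb, of the pro-apoptotic BCL2 relatives, by -0.67 (SE 0.14) and the tight junction gene cgna by -0.58 (SE 0.12). CRYAB, a small heat shock protein that is also a lens crystallin, differed by -1.18 (SE 0.28).

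**Figure D3:**
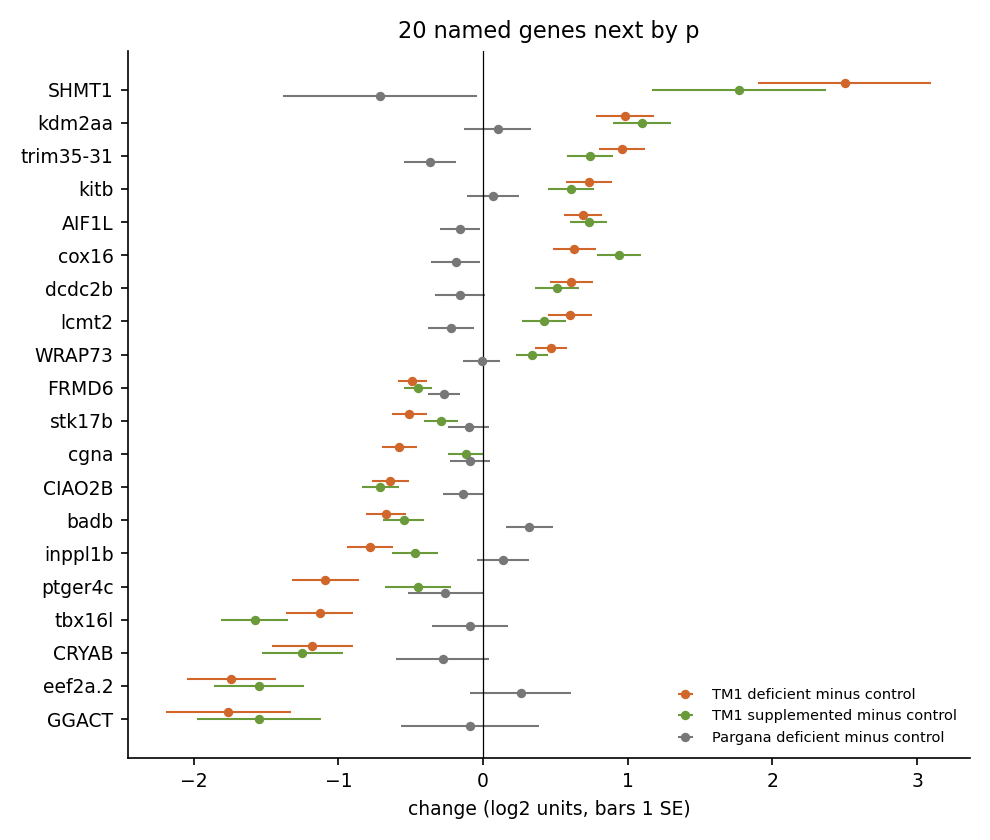
Differences from the control diet, in log2 units with bars of 1 SE, for the 20 named genes that follow the passing genes in order of p. Orange is deficient and green supplemented Transgenic Mosaic 1 (TM1), which share their 3 control fish, and grey is deficient Pargana. SHMT1 lies at 2.50 in Transgenic Mosaic 1 and at -0.71 in Pargana.

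An unadjusted p under 0.01 was reached by 145 genes (0.927%), and the widest differences among those with symbols rested in part on single fish. The interferon-induced ifi44a1 was at 4.83, 5.21 and 4.99 in the control fish and at 6.6, 8.50 and 5.59 in the deficient fish, a difference of 1.88 (SE 0.55). The chemokine ccl34b.4 was at 10.56 in deficient fish 2 and at 8.20 and 8.14 in its group mates, with 6.57 to 7.64 in the control fish. The gene unc119c, of a family of lipid-binding proteins first known from photoreceptors, was at 11.0 in deficient fish 2 and at 7.96 and 8.05 in the other deficient fish. Their differences were 1.70 (SE 0.57) and 1.80 (SE 0.60), and without deficient fish 2 they were 0.91 and 0.79. That of ifi44a1 was then 1.08. ZNF511 differed by 1.22 (SE 0.37). PROM1, a membrane protein of stem cells and photoreceptors, differed by 1.1 (SE 0.33), with control fish 1 at 9.87 and its group mates at 8.65 and 8.54, and by 1.53 without that fish. On the lower side stood NEB, the giant muscle protein nebulin (-1.67, SE 0.44), hsd3b1, of steroid synthesis (-1.53, SE 0.47), and PMCH, the precursor of the hypothalamic melanin-concentrating hormone (-1.33, SE 0.40). NEB did not stand for muscle genes in general. Of 20 measured skeletal muscle genes 12 were above and 8 below 0, with a median of 0.02. In hsd3b1 deficient fish 2 was at 7.77, close to the control fish at 7.93 to 8.27, and the other deficient fish were at 5.76 and 6.05, so the difference without it was -2.16. None of these passed, with limma adjusted p from 0.681 to 0.999.

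Whether the response differed between the populations was tested as the change in Transgenic Mosaic 1 minus the change in Pargana. For this difference 8 genes (0.0511%) passed in limma, 1 higher (0.00639%) and 7 lower (0.0447%), with 798 at an unadjusted p under 0.05 (5.10%). The count and its direction depended on single fish, with 118 genes, 102 of them higher, without Pargana control fish 2, 13 without Transgenic Mosaic 1 deficient fish 2, and 5 with array weights or without Pargana deficient fish 3 or Transgenic Mosaic 1 control fish 1 or 2. The 3 genes described above as lower in the deficient fish were among the 8, in a test that uses the same control and deficient fish. The difference was -4.34 (SE 0.23, limma adjusted p = 4.53e-07) for ENSDARG00000095735, -4.72 (SE 0.34, limma adjusted p = 1.01e-05) for ENSDARG00000078938 and -2.35 (SE 0.28, limma adjusted p = 0.00253) for si:dkey-58f10.8. In Pargana their own changes were 0.08 (SE 0.17), 0.66 (SE 0.25) and 0.35 (SE 0.21). For UBE2G1, sun1a, ENSDARG00000091965 and pmaip1, which passed as well, the Transgenic Mosaic 1 change was 0.27, -0.24, -0.22 and 0.39 log2 units. In these 4 the Pargana change was the larger, and of 19 alternative settings sun1a lost its call in 8, ENSDARG00000091965 in 9 and pmaip1 in 11. UBE2G1 was at 5.32 and 5.80 in the Pargana control fish and at 11.56 or above in all deficient fish of both populations.

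Over the whole table the changes of the populations had little in common. Their Pearson correlation across genes was 0.0325, and 8538 genes (54.6%) had the same sign. Of the 730 genes at an unadjusted p under 0.05 in Transgenic Mosaic 1, 425 (58.2%) had the same sign in Pargana. That share was 49.6% without Pargana control fish 2 and 62.9% without Pargana control fish 1. The Pargana control fish are a single pair, with the lowest correlation within a group, 0.9743.

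No selenoprotein gene changed detectably. Of 17 measured selenoproteins 0 passed in limma, and 0 had an unadjusted p under 0.05, the smallest being 0.101. Of the 17, 11 were lower and 6 higher in the deficient fish, with a median of -0.03 that equals the median over all genes. Without deficient fish 2 the selenoprotein median was -0.08, and that of all genes stayed at -0.03. For 7 selenoproteins listed as sensitive to selenium the median was -0.06 with that fish and -0.13 without it. The 95% interval lay within 1 log2 unit of no change in 16 of the 17 and within 0.5 in 9. In the rest, changes above 0.5 were not excluded. Changes within its interval could be missed in any of the 17 at this number of arrays.

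Glutathione peroxidase 1, which reduces hydrogen peroxide, is encoded by gpx1a and gpx1b in zebrafish. The gene gpx1a was at 11.49, 11.24 and 11.57 in the control fish and at 11.27, 11.24 and 10.82 in the deficient fish. Deficient fish 1 lay above control fish 2, so the groups overlapped, and the difference was -0.33 (SE 0.23, 95% interval -0.83 to 0.17). Its weakly expressed relative gpx1b had 0.24 (SE 0.25, interval -0.30 to 0.78). The small muscle and brain selenoprotein gene selenow1 was at 13.28, 13.29 and 13.49 on the control diet and at 13.11, 13.26 and 12.97 on the deficient diet. It was the only selenoprotein whose fish did not overlap, at a difference of -0.24 (SE 0.14, 95% interval -0.54 to 0.05). Over all genes 5.36% had such an order. In Pargana gpx1a had -0.68 and selenow1 0.20, and 0 of the 17 selenoproteins differed between the populations at an unadjusted p under 0.05.

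The selenoproteins that supply selenium or serve other tasks had small differences. The plasma carrier gene selenop was at 13.62, 13.39 and 13.67 in the control fish and at 13.44, 13.63 and 13.43 in the deficient fish, which overlapped fully (-0.06, SE 0.14). GPX4, the peroxidase that reduces lipid hydroperoxides, had 12.07, 11.87 and 12.03 against 11.87, 12.08 and 11.94 (-0.03, SE 0.17). Of the selenoproteins of the endoplasmic reticulum, selenos differed by 0.05 (SE 0.13), SELENOM by -0.02 (SE 0.16) and selenon by -0.10 (SE 0.24). The thioredoxin-like selenot1b and selenot2 differed by -0.10 (SE 0.14) and 0.04 (SE 0.11), and the methionine sulfoxide reductase MSRB1 by 0.03 (SE 0.13). DIO2, the deiodinase that activates thyroid hormone, differed by -0.07 (SE 0.25). The widest interval belonged to selenow2b, from -1.23 to 1.1, which was at 7.97 in deficient fish 2 and at 5.30 and 5.29 in the other deficient fish. Without that fish its difference was -0.96 instead of -0.06.

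**Figure D4:**
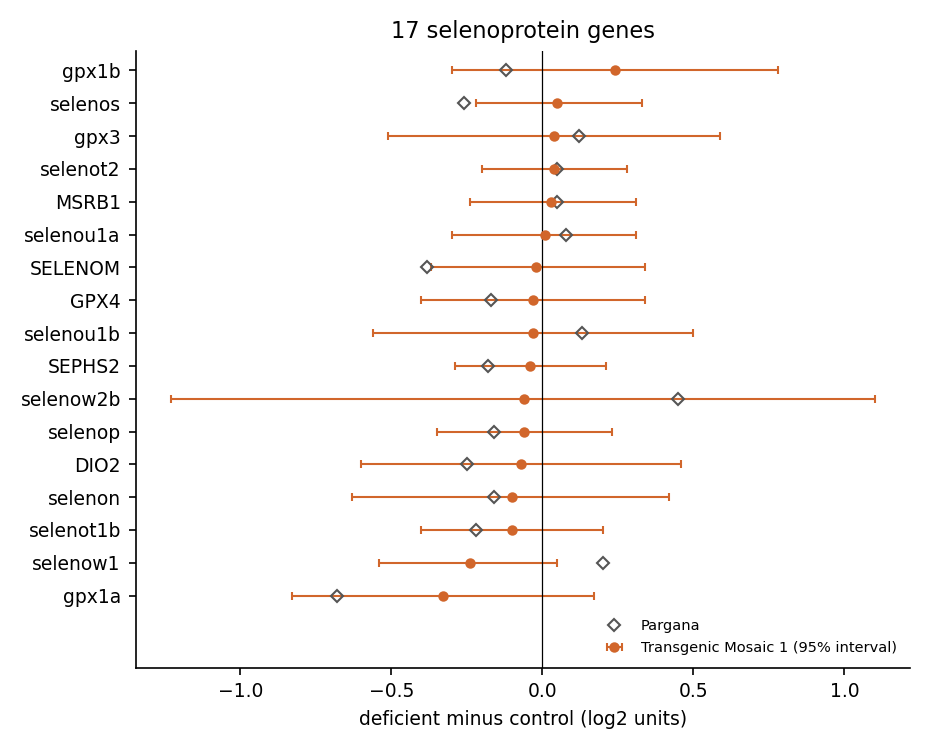
Deficient minus control difference of 17 selenoprotein genes in log2 units, with 95% intervals from limma in Transgenic Mosaic 1 (filled points, 3 fish against 3) and the Pargana difference (open diamonds, 3 fish against 2). All 17 intervals hold 0, and the lowest points are gpx1a at -0.33 and selenow1 at -0.24.

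The machinery that makes and inserts selenocysteine showed no gene past the threshold among 10 measured. SARS1, the seryl-tRNA synthetase that charges the selenocysteine tRNA with serine as well as the serine tRNAs, was the only member at an unadjusted p under 0.05. That is 10% of this short list, beside 4.67% of all genes. SARS1 was at 12.60, 12.78 and 12.28 in the control fish and at 11.99, 12.32 and 12.28 in the deficient fish, at -0.36 (SE 0.15). The gene secisbp2 had 0.52, with 11.18, 10.23 and 10.72 against 11.54, 10.80 and 11.33. The receptor LRP8 had 0.20 and SEPHS2, which makes selenophosphate and is itself a selenoprotein, -0.04 (SE 0.12). The median of the 10 genes was -0.01.

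Antioxidant enzymes other than selenoproteins had small differences on both sides, with a median of -0.02 over 35 genes, 15 above and 20 below 0, and 0 past the threshold. HMOX1, the heme oxygenase induced by oxidants, was the 1 member at an unadjusted p under 0.05. That is 2.86% of the list, beside 4.67% of all genes. HMOX1 was at 7.71, 8.36 and 7.57 on the control diet and at 6.32, 7.55 and 7.41 on the deficient diet, below all control fish (-0.79, SE 0.31). The NRF2 gene NFE2L2 had -0.09, the glutathione synthesis genes GCLC and GCLM 0.06 and -0.15, and SOD1 and SOD2 -0.25 and 0.13.

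Of 26 measured genes of the methionine cycle, folate and transsulfuration, 0 passed. At an unadjusted p under 0.05 there were 2 higher and 0 lower, or 7.69% of the list beside 4.67% of all genes. The 2 genes were SHMT1 and BHMT, which remethylates homocysteine with betaine. BHMT was at 9.54, 10.12 and 10.00 in the control fish and at 11.30, 10.43 and 10.23 in the deficient fish, all of which lay above the controls (0.77, SE 0.29). MAT2A, which makes S-adenosylmethionine, had 0.06 and CBS, the first enzyme of transsulfuration, -0.08. The median of the list was -0.02.

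In the iron-sulfur list, to which CIAO2B belongs, 0 of 22 measured genes passed. At an unadjusted p under 0.05 there were 2 higher and 3 lower, or 22.7% of the list beside 4.67% of all genes. The scaffold gene nfu1 had -0.42, while NUBP1, of cytosolic cluster assembly, had 0.37 (SE 0.14). The list median was 0.00 to 2 decimals, with 11 genes on each side, so its members did not share a direction. CIAO2B was a leading gene of the same comparison, and the list was chosen with it known.

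Of 30 genes of the unfolded protein response, EIF2AK3, the kinase PERK (0.36, SE 0.13), and the chaperone DNAJB9 (0.33, SE 0.15) were at an unadjusted p under 0.05, which is 6.67% of the list beside 4.67% of all genes. Of 25 immediate early genes 4 were (16%), with the synaptic pentraxin NPTX2 at -0.41 (SE 0.17), klf2a at -0.55 (SE 0.23), KLF6 at -0.36 (SE 0.16) and FOSL1 at 0.48 (SE 0.20). In the immediate early list the groups did not overlap in 20% of genes, beside 8.29% of all genes. In oxidative phosphorylation, with 63 measured genes, 3.17% were, namely NDUFS8 of complex I (0.36, SE 0.15) and UQCRC2 of complex III (-0.32, SE 0.14). None of these passed in limma, and the medians of the lists were between -0.01 and -0.02.

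Of the 33 gene lists examined, 0 had a member past the threshold in limma, and list medians ran from -0.22 to 0.47. The lowest median was that of proliferation and neurogenesis genes, of which 20 of 24 measured were below 0, where 56.5% of all genes were. It was -0.16 without deficient fish 2 and -0.19 in deficient Pargana fish. The cell cycle marker mki67 was at 7.68, 7.53 and 7.12 in the control fish and at 7.09, 6.92 and 6.27 in the deficient fish. All deficient fish were below all controls, at -0.68 (SE 0.27) and an unadjusted p of 0.0239 in limma. The mitotic genes plk1 (-0.56), CCNB1 (-0.46) and TOP2A (-0.40) had unadjusted p of 0.103, 0.0676 and 0.205. The replication clamp PCNA had -0.11 and the immature neuron gene SOX11 0.16.

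In the neurotransmitter and hormone lists the differences were mostly small. Of 22 glutamate receptor genes 16 were below 0 (median -0.04), and of 15 GABA and glycine receptor genes 10 were (median -0.05). Of all genes 56.5% were below 0. Of 21 monoamine neuron genes 11 were above and 10 below 0. The gene th2, of the monoamine neuron list, had 0.49 (SE 0.23). The kainate receptor subunit GRIK4 had -0.35 (SE 0.13), with all deficient fish below all control fish. The clock gene npas2 was at 12.23, 12.61 and 11.93 on the control diet and at 11.69, 11.42 and 11.81 on the deficient diet (-0.62, SE 0.21). Among 13 genes of thyroid hormone action 11 were below 0, beside 56.5% of all genes, with a median of -0.13 and 0 at an unadjusted p under 0.05. The hypothalamic hormone gene oxt varied widely within groups, at 13.41, 7.91 and 13.21 against 13.32, 11.29 and 7.20. The part played by the extent of dissection in these values was not tested.

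The neuron markers had a median of 0.00 over 16 genes and the midbrain markers 0.07 over 15. Other marker lists had medians below 0, at -0.20 for 13 meningeal and connective tissue genes, -0.18 for 18 forebrain genes, -0.18 for 5 red blood cell genes and -0.13 for 13 vessel genes. Without deficient fish 2 they were -0.17, -0.19, -0.12 and -0.06. In bulk tissue fewer cells of a type and less RNA per cell cannot be told apart. The myelin gene plp1b was at 13.48, 13.39 and 13.70 in the control fish and at 13.23, 13.15 and 12.98 in the deficient fish, below all of the controls (-0.40, SE 0.12). It was the member of smallest p among 8 oligodendrocyte genes, 7 of which were below 0, with a median of -0.14. The smooth muscle actin acta2, of pericytes and arterial walls, was at 10.08, 10.19 and 10.06 against 9.26, 9.53 and 9.59 (-0.65, SE 0.21). Of 14 microglia and macrophage genes 10 were above 0, while apoeb, at -0.32 (SE 0.15), was the lowest of the list. None of these genes passed, with a limma adjusted p of 0.999.

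Deficient fish 2 carried a strong signal of eye and pineal genes. A list level was formed for each fish as the mean over the list of each gene's value minus that gene's mean over the 17 fish. For 24 photoreceptor, lens and pineal genes it was 1.15 in deficient fish 2 and -0.44 to -0.11 in the other 8 Transgenic Mosaic 1 fish. The retinol-binding gene rbp4l was at 13.70 in this fish, with 7.29 and 8.11 in the other deficient fish. The melatonin enzyme gene aanat2 of the pineal was at 11.33, the rod transducin GNAT1 at 11.04 and the arrestin saga at 9.20. In 15 of the 24 genes it was the highest of the 9 fish, and in 11 by more than 1 log2 unit. It was not raised in all of them, and the lens crystallin CRYAA, at 4.08, was within the range of the others. A high level of the eye and pineal list was also seen in Pargana. There supplemented fish 1 had 1.21 and deficient fish 2 had 0.56, with -0.46 to 0.07 in the other Pargana fish.

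The medians that deficient fish 2 touched moved when it was left out. The eye and pineal median was 0.47 with it and 0.02 without it, and the microglia and macrophage median was 0.22 and -0.04. The list level of interferon response genes was 0.52 in this fish and -0.31 to -0.08 in the other 5 fish compared, but supplemented fish 1 had 0.71. For microglia and macrophage genes these 2 fish had 0.41 and 0.42. The interferon list median was 0.13 with it and 0.01 without it. The immunoproteasome gene PSMB8 was at 10.53 in deficient fish 2, at 6.47 and 6.65 in its group mates and at 7.52, 5.27 and 7.89 in the control fish. Its difference of 0.99 (SE 1.01) rests on that fish and was -0.34 without it. IRF7, which switches on interferon genes, followed another order. It was at 10.65, 9.33 and 10.37 on the deficient diet, with fish 2 at the level of the controls (9.34, 9.43 and 9.39). The part of eye, pineal or immune tissue in these values was not tested.

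**Figure D5:**
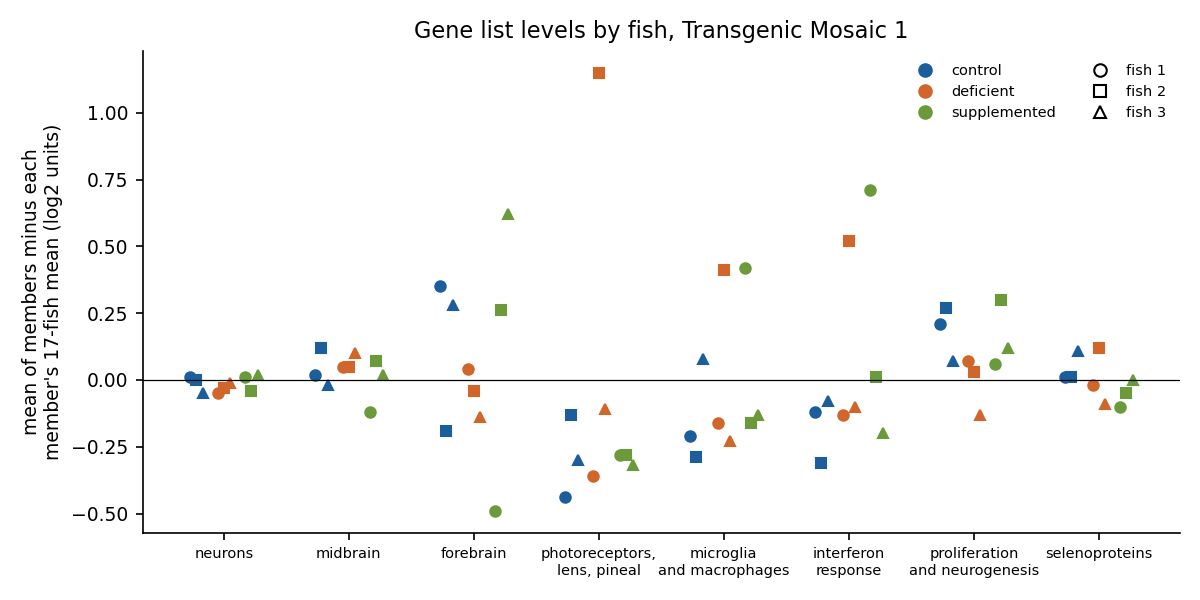
Level of 8 gene lists in each of the 9 Transgenic Mosaic 1 fish, as the mean over the list of each gene's value minus its mean over all 17 fish, in log2 units; colours are diets and symbols are fish numbers, which pair no fish across diets. Deficient fish 2 stands at 1.15 for eye and pineal genes, and the neuron and selenoprotein lists stay near 0.

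Deficient fish 2 did not decide the main calls. All 4 passing genes kept their call without it, and 10 genes passed then. The added genes included trim35-31 (1.1), eef2a.2 (-2.02) and kdm2aa (1.30, limma adjusted p = 3.3e-04). In each of these genes deficient fish 2 was the deficient fish nearest the controls, so passing without it is no separate evidence. In TMBIM1, of a family of inhibitors of cell death, the control fish were at 8.91, 8.04 and 9.16 and the deficient fish at 4.04, 9.26 and 4.30. Deficient fish 2 was thus at the level of the controls. Its group mates lay below the 5th percentile of their arrays (4.57 and 4.63), so no size is given for the difference, which passed only without this fish.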

How the data were processed

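Single midbrains gave total RNA, from which randomly primed cDNA was made and labelled with Cy3 for NimbleGen arrays, per the labels' protocols. The deposited values are log2 expression per Ensembl gene, and the submitters' processing notes name RMA and the Zv9 build. The labels give no slide or scan date, so no batch could be examined. Values were used as deposited. Of 15649 features, 1 that names no gene was left out.

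A mean for each of the 6 groups was fitted with limma 3.58.1 in R 4.3.3 on all 17 arrays, with empirical Bayes moderation (11 residual and 2.84 prior degrees of freedom). Tests were two-sided, with Benjamini-Hochberg adjustment over 15648 genes and a threshold of 0.05. Symbols were found for 13251 genes (84.68%), and a symbol in capitals does not say which of several zebrafish copies it names. Of 1080 entries in 33 lists, 771 were matched by symbol, synonym or base symbol, with the feature of highest mean for each. The RefSeq annotation of GRCz12tu gave synonyms and gene order only.

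Named genes were all that passed, the next 20 by p with a symbol, the 6 largest differences in each direction at an unadjusted p under 0.01, up to 4 members per list at an unadjusted p under 0.05, otherwise the 2 of largest change, and every selenoprotein; most are summarised. For likeness of pattern, the 5 features that correlated most with each passing gene were taken. Genes shown for single fish or for spread within groups, ANKRD2, and the lists' other examples were chosen after their values were seen. The comparison and the lists were chosen with earlier results of these data known. Several genes within this rule are left out of the text. Alternatives were normalization, a filter on low values, 1 feature per symbol, variance moderation, array weights, other fish in the fit and leaving out each fish. The number of arrays limits the precision.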

Additional observations from a re-analysis of the deposited data

Results flagged for a closer look

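The change on the deficient diet differed between the populations, by the limma test of that difference, in 3 named genes. Transgenic Mosaic 1 minus Pargana was -4.34 log2 units for ENSDARG00000095735 (limma adjusted p = 4.53e-07), -4.72 for ENSDARG00000078938 (limma adjusted p = 1.01e-05) and -2.35 for si:dkey-58f10.8 (limma adjusted p = 0.00253). In Transgenic Mosaic 1 the 3 control fish were high and the 3 deficient fish were at or near the levels of the 8 Pargana fish on any diet. The 3 supplemented Transgenic Mosaic 1 fish were low as well, with means of 8.74, 7.1 and 5.24 in the same order. This test uses the same 3 control fish as the comparison within Transgenic Mosaic 1, so it is no separate evidence of that step. The Pargana side of each difference rests on 2 control fish. Groups of 2 or 3 fish are too small for a test of single outlying fish, so none was made.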

How the results depend on the processing

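The count of 4 passing genes was 4 under 7 of the other settings, 3 without the lowest quartile of genes by mean, where si:dkey-58f10.8 was no longer tested, and 5 with array weights, where eef2a.2 was added (-2.01, adjusted p = 0.03). Leaving out each fish gave 4 to 10 genes, with 10 without deficient fish 2 and 5 without control fish 1 or 3, and the 4 genes were among them each time. The count of 8 for the difference between populations was 5 with array weights and 5 with the 4 groups on the control and deficient diets alone. Leaving out each fish gave 5 to 118, with 118 without Pargana control fish 2, of which 102 were higher, 13 without Transgenic Mosaic 1 deficient fish 2, and 5 without Pargana deficient fish 3 or without Transgenic Mosaic 1 control fish 1 or 2. Of 19 settings for this difference, ENSDARG00000091965 lost its call in 9, pmaip1 in 11, sun1a in 8 and UBE2G1 in 0. ENSDARG00000095735 and ENSDARG00000078938 kept theirs in all 19, and si:dkey-58f10.8 in 18. The cause was not tested. For deficient against control alone, 471 values of 32 named genes were compared; 0 lost a call or changed direction and 5 gained a call: eef2a.2 with array weights, SHMT1 without control fish 3 (3.53), and trim35-31, eef2a.2 and kdm2aa without deficient fish 2. Genes at an unadjusted p under 0.05 numbered 522 without deficient fish 1 and 1334 without deficient fish 2, where 782.4 would be expected if no gene differed. No paired analysis was possible because the labels give no replicate numbers. No change of scaling moved the median of all genes by 0.1 log2 units.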

Other observations

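Single fish at the level of the other diet were seen in more genes, all chosen after their values were seen. The secreted inhibitor gene dand5 was at 6.42, 7.13 and 7.46 in the control fish and at 4.58, 7.99 and 5.10 in the deficient fish, with 4.43 to 4.88 in the supplemented fish. ENSDARG00000095691 was at 7.71, 8.13 and 6.91 against 5.22, 8.09 and 5.92, and the supplemented fish had 5.85 to 5.96. In both, as in TMBIM1, deficient fish 2 was at the level of the control fish. The differences were -1.11 and -1.17 with this fish and -2.16 and -2.01 without it. In dand5 deficient fish 1, at 4.58, lay next to the 5th percentile of its array, 4.57, so the size of that difference is uncertain. In lcorl, control fish 1 was at 11.15, among the deficient fish at 11.27, 10.89 and 10.86, and control fish 2 and 3 were at 9.66 and 9.09. The difference in lcorl was 1.04 (SE 0.36), and it passed only without control fish 1, the fish that disagreed with its group.

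Genes at an unadjusted p under 0.05 were not spread evenly over the chromosomes, in the gene order of GRCz12tu. Chromosome 13 had 24 higher and 9 lower of 422 genes (7.82%), chromosome 1 had 24 higher and 12 lower of 435 (8.28%), chromosome 3 had 13 higher and 22 lower of 421 (8.31%), and chromosome 21 had 1.52%. On chromosome 13 a run of 33 measured genes from MTRES1 to wdr27 held 9 of the 24, where 1.79% of all genes were higher at that p. In 8 of the 33 the deficient fish all lay above the control fish, which held for 2.93% of all genes, and 20 of the 33 were above 0, with a median of 0.09. The run was found by looking at these values and its ends were set by them, so it has no test. Its 9 genes included VTI1B, of vesicle fusion, at 9.81, 9.38 and 9.64 against 10.78, 9.97 and 10.60, and the protease inhibitor cst3 at 11.28, 11.18 and 11.03 against 12.09, 11.57 and 11.34. Supplemented minus control, which uses the same control fish, was 0.57 for MTRES1, 0.52 for SLC66A3, 0.71 for VTI1B and 0.66 for oip5. It was 0.51 for dcdc2b and 0.63 for wdr27, but 0.04 for btbd6a, 0.05 for cst3 and 0.17 for TASP1. The same-direction neighbours are values only, and no explanation was tested.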
